A study of Mus musculus with 17 samples.

Results

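Gene expression on entry to the thymus was described by setting early thymic progenitors (ETP), the earliest T cell precursors found in the thymus, against lymphoid-primed multipotent progenitors (LMPP), a bone marrow population from which such precursors can arise. The 4 arrays titled ETP and LMPP, 2 of each, were chosen by their titles from the 17 arrays of the study. The study sorted 9 mouse cell populations: hematopoietic stem cells (HSC), LMPP, common myeloid progenitors that carry or lack surface Flt3 (flt3+ CMP and flt3- CMP), common lymphoid progenitors (CLP), early innate lymphoid progenitors (EILP, 1 array) and natural killer cells (NK) from marrow, and, from thymus, ETP and the more advanced DN3 thymocytes. LMPP were taken from bone marrow and ETP from thymus, and all populations, LMPP and ETP included, came from the same kind of chimera. Its hosts were CD45-congenic mice (B6 CD45.1) irradiated with 900 rads, and their donor marrow carried a GFP reporter of TCF-1, a transcription factor of T cell development. The sort gates, and whether host cells that remained were gated out, are not given here. Cells were sorted after 12 weeks of reconstitution and pooled over animals, so that the thymus was one reseeded from marrow, and age and sex are not given. Whether the replicates of a population are separate pools of animals is not given, and p-values then measure only the spread between these samples.

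A progenitor that settles in the thymus meets Notch ligands on thymic epithelial cells. Ligand binding releases the intracellular part of the Notch1 receptor, which joins the DNA-binding protein Rbpj and switches on target genes such as Hes1. Under this signal ETP divide, pass through the DN2 and DN3 stages, lose the ability to make myeloid, dendritic and B cells, and begin to transcribe T cell genes. Commitment itself, marked by Bcl11b, comes after the ETP stage.

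Expression is given as log2 values of probe sets, 1 for each of 22180 genes. A difference is the ETP mean minus the LMPP mean on this scale, so that 1 is a 2-fold change, and ± after a difference is the standard error (SE) of the fit with n = 2 arrays against 2. A gene was called, and is said to have risen or fallen, at a limma adjusted p under 0.05 (two-sided, Benjamini-Hochberg over all genes). The array medians lay between 4.45 and 4.62 and the median of all values was 4.54. A level at or below that median is dim, and the size of a change that ends there is uncertain. The 2 LMPP arrays correlated at 0.9852 and the 2 ETP arrays at 0.9734 across genes, against a mean of 0.9597 between the populations. The ETP arrays differed from each other at least 2-fold in 627 genes and the LMPP arrays in 236. The number of arrays limits the precision: the median SE of a difference was 0.20, and an exact permutation test of 2 arrays against 2 cannot give a p below 0.333. In sorted bulk RNA, fewer cells of a type and less RNA per cell cannot be told apart.

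In all, 759 of the 22180 genes differed between ETP and LMPP (3.42% of those tested). ETP were higher in 226 of them (1.02%) and lower in 533 (2.4%), and 142 and 398 of these changed at least 2-fold. The shares of 1.02% and 2.4% are the background for the counts of list members given below. At an unadjusted p under 0.05 there were 3196 genes (14.4%). The median difference over all genes was 0.04. Single arrays moved these counts: 101 genes were higher and 346 lower without LMPP replicate 1, 142 and 330 without LMPP replicate 2, and 401 and 578 without ETP replicate 1. In 41.2% of all genes the ETP and LMPP arrays did not overlap, with ETP above in 23.8% and below in 17.5%.

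**Figure D1:**
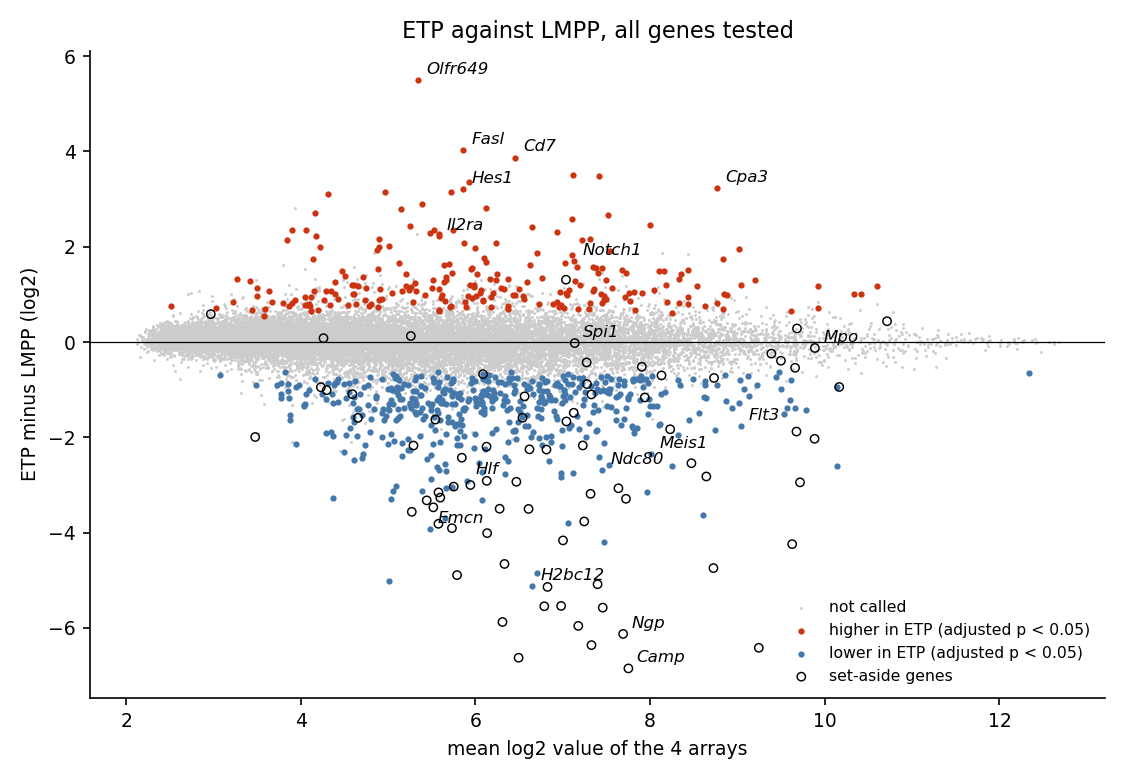
Each point is 1 of 22180 genes. The horizontal axis is the mean log2 value over the ETP and LMPP arrays and the vertical axis the difference of ETP minus LMPP (log2). Set-aside genes reach the lowest differences, down to -6.85 for Camp, and the highest difference is 5.50 for Olfr649.

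Transcripts of mature granulocytes were present on every marrow array, those of stem cells and NK cells included, and were described apart from the rest. The list of 28 late neutrophil genes (secondary granule proteins, S100 proteins and surface receptors) had a mean between 7.52 and 9.93 on the 13 marrow arrays. It was at 8.53 and 8.32 on the LMPP arrays and at 4.77 and 4.64 on the ETP arrays. This list and 67 genes that were marrow-wide, meaning that the lowest of the 11 marrow arrays other than LMPP lay at least 2 above the highest DN3 array, were set aside. They share 18 genes, so that 77 genes were set aside, and neither criterion reads an ETP or LMPP array.

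Of these 77 genes, 59 fell in ETP, 1 rose and 17 were not called, with a median difference of -2.43. They made up 11.1% of all genes that fell. Camp, which encodes the cathelicidin peptide stored in neutrophil granules, was at 11.22 and 11.13 on the LMPP arrays and 4.79 and 3.86 on the ETP arrays, and fell by 6.85 ± 0.24 (adjusted p = 1.62e-09). The next largest falls were those of Retnlg, a resistin-like protein of neutrophils (-6.63 ± 0.32), S100a8, a calcium-binding protein of neutrophils (-6.42 ± 0.57), Chil3, a chitinase-like protein (-6.36 ± 0.25), and Ngp, a granule protein (-6.13 ± 0.16). For Retnlg, Chil3 and Ngp both ETP arrays lay near the DN3 arrays: Ngp was at 4.58 and 4.67 in ETP and at 4.61 and 4.79 in DN3. The 17 that were not called included regulators of progenitors. Spi1, the gene of PU.1, a transcription factor of myeloid and early lymphoid progenitors, was at 7.13 and 7.17 on the LMPP arrays and 6.90 and 7.35 on the ETP arrays (difference -0.02 ± 0.18, adjusted p = 0.98). Mef2c, a transcription factor of lymphoid and myeloid progenitors, was at 10.01 and 9.85 on the LMPP arrays and 9.48 and 9.30 on the ETP arrays (difference -0.54 ± 0.24, adjusted p = 0.33). Tyrobp, the adaptor DAP12 of activating receptors, was at 10.46 and 10.53 on the LMPP arrays and 10.89 and 10.98 on the ETP arrays (0.44 ± 0.19, adjusted p = 0.326). On the DN3 arrays these 3 genes were at 4.37 and 4.41, 5.33 and 5.43 and 4.79 and 5.33, below every ETP value. Low DN3 values were part of the marrow-wide criterion that set these 3 genes aside. The gene that rose, Clec4e, a C-type lectin receptor of the late neutrophil list, was at 6.65 and 6.11 on the LMPP arrays and 7.47 and 7.91 on the ETP arrays and rose by 1.31 ± 0.23 (adjusted p = 0.004). It was not called without LMPP replicate 2 (adjusted p = 0.0621) or ETP replicate 2 (adjusted p = 0.0512).

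**Figure D2:**
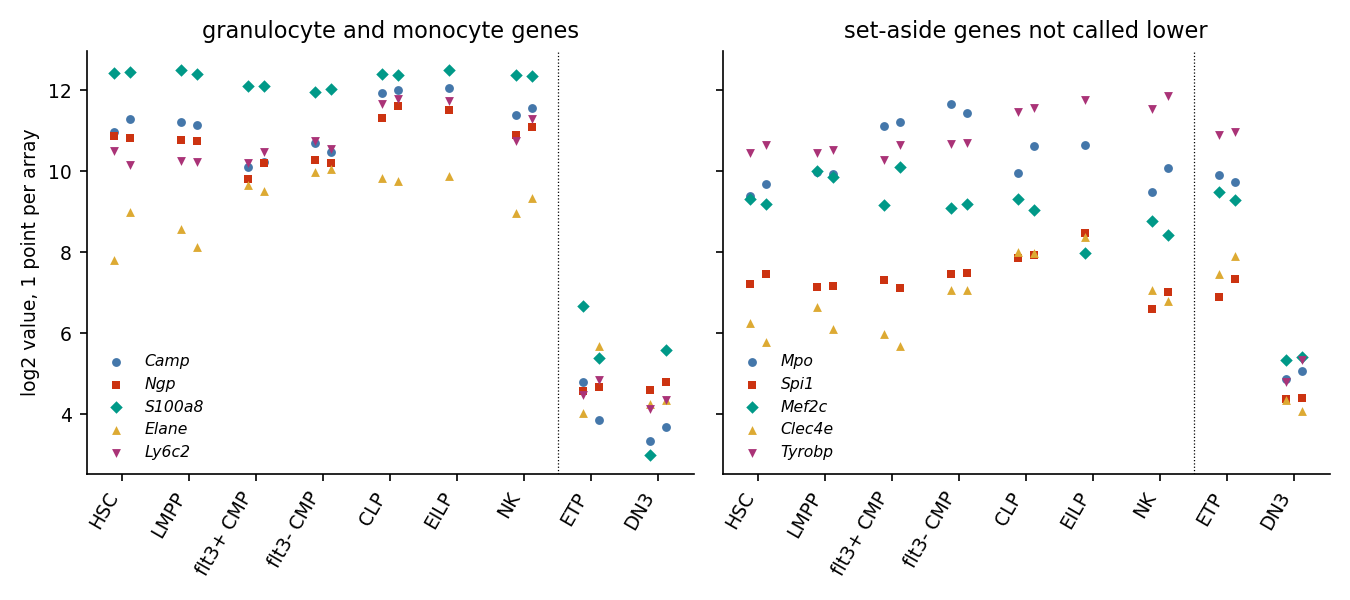
Log2 values of granulocyte and monocyte genes and of set-aside genes that were not called lower, on all 17 arrays by population. Points are arrays. Camp, S100a8 and Ngp are high on every marrow array and low in ETP and DN3. Spi1, Mef2c and Tyrobp differ between LMPP and ETP by -0.54 to 0.44 and are low in DN3, which the marrow-wide criterion required.

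Outside the set-aside genes, 225 genes rose (1.02%) and 474 fell (2.14% of 22103), of which 141 and 342 changed at least 2-fold. Of the 474, 112 (23.6%) ended at or below the median in ETP, and of the 225, 80 (35.6%) began there in LMPP. Genes that correlated above 0.8 with the mean of the neutrophil granule genes Ltf, Camp and Ngp over the 11 arrays other than LMPP, ETP and DN3 made up 91 of the 474 (19.2%) and 2.24% of all genes. Their part in the falls was not tested. With these genes left out in place of the marrow-wide genes, and the late neutrophil list left out as before, 401 genes fell and 218 rose.

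The receptor gene Notch1 and 2 target genes were higher in ETP. Hes1, a transcriptional repressor switched on by Notch, was at 4.15 and 4.35 on the LMPP arrays and 7.42 and 7.51 on the ETP arrays, and rose by 3.21 ± 0.14, about 9.25-fold (adjusted p = 1.23e-08). Its LMPP values were dim and its ETP values near those of DN3, at 7.95 and 7.88. Notch1 was at 6.17 and 6.39 on the LMPP arrays and 7.90 and 8.06 on the ETP arrays and rose by 1.70 ± 0.21 (adjusted p = 0.000219), with DN3 higher again at 8.77 and 8.76. Il2ra, the interleukin 2 receptor alpha chain CD25 and a Notch target in thymocytes, was at 4.50 and 4.44 on the LMPP arrays and 6.91 and 6.47 on the ETP arrays and rose by 2.22 ± 0.18 (adjusted p = 5.6e-06). CD25 protein marks the stages after ETP, and Il2ra was at 11.01 and 10.86 in DN3. The calls of these 3 genes held without each of the 4 arrays in turn.

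The rest of the Notch pathway did not pass the test. Of 16 measured receptors and pathway parts, Notch1 alone was called, and the median difference was 0.13. Of 10 target genes, Hes1 and Il2ra were called, and the median was 0.22. Dtx1, an E3 ubiquitin ligase induced by Notch, was at 4.54 and 4.49 on the LMPP arrays and 4.96 and 5.195 on the ETP arrays, a difference of 0.56 ± 0.16 that missed the threshold (adjusted p = 0.0937) but passed it after quantile normalization (adjusted p = 0.046). Ptcra, the pre-T cell receptor alpha chain, was at 4.94 and 4.92 on the LMPP arrays and 4.79 and 4.80 on the ETP arrays (-0.13 ± 0.26, adjusted p = 0.886), and was 2.50 higher in DN3 than in ETP. Myc, a growth regulator downstream of Notch1, was at 8.51 and 8.61 on the LMPP arrays and 8.64 and 8.44 on the ETP arrays (-0.02 ± 0.15, adjusted p = 0.979).

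Among 14 transcription factors of the T lineage, Tox rose and none fell, with a median of 0.37. Tox, a nuclear protein needed for T cell and innate lymphoid development, was at 6.75 and 6.36 on the LMPP arrays and 8.60 and 7.66 on the ETP arrays and rose by 1.57 ± 0.25 (adjusted p = 0.00225). Gata3, which is needed at the ETP stage, was at 4.40 and 4.49 on the LMPP arrays and 6.01 and 5.10 on the ETP arrays. Its ETP arrays lay above its LMPP arrays but 0.91 apart, and the difference of 1.12 ± 0.37 was not called (adjusted p = 0.153), except in the fit without the CLP, EILP and DN3 arrays (adjusted p = 0.0307). Bcl11b, the factor of T cell commitment, was at 4.70 and 4.57 on the LMPP arrays and 4.72 and 4.72 on the ETP arrays (0.09 ± 0.16, adjusted p = 0.873) and at 8.82 and 8.85 in DN3. The gene of TCF-1 itself was not analysed here.

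T cell surface and signalling genes were in part higher in ETP: 8 of 20 measured rose and none fell, with a median of 0.65. Of the 20, 5 had means at or below the overall median in both populations. Their named members were receptors and the first signalling proteins behind the T cell receptor. Cd7, an immunoglobulin family receptor of T and NK cells, was at 4.79 and 4.24 on the LMPP arrays and 8.04 and 8.73 on the ETP arrays and rose by 3.87 ± 0.28 (adjusted p = 2.09e-06). Cd7 was at 4.87 and 4.94 in DN3, so that it was higher in ETP than at the later stage, and it was highest of all in NK (mean 9.78). Cd3g, a chain of the T cell receptor complex, was at 3.36 and 3.10 on the LMPP arrays and 5.69 and 4.74 on the ETP arrays and rose by 1.99 ± 0.27 (adjusted p = 0.000553). The other CD3 chains were not called: Cd3e was at 3.29 and 3.21 on the LMPP arrays and 3.38 and 4.34 on the ETP arrays and Cd3d at 5.10 and 4.70 on the LMPP arrays and 4.71 and 5.80 on the ETP arrays. Cd3e was called without ETP replicate 1 alone (adjusted p = 0.00901), and its difference ranged from 0.13 to 1.09 with 1 array left out. In DN3 all 3 were high, at 11.66 and 11.62 for Cd3g, 10.19 and 10.03 for Cd3e and 10.998 and 11.01 for Cd3d. Trat1, an adaptor of the T cell receptor, rose by 1.75 ± 0.24 from 3.30 and 3.23 to 5.53 and 4.50 (adjusted p = 0.000632). The LMPP values of Cd3g and Trat1 were dim, as was Trat1 on ETP replicate 2.

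Smaller rises were seen for Lat and Lcp2, adaptors that link the T cell receptor to its signals, for Themis, a signalling protein of thymocytes, and for the surface proteins Thy1 and Cd5. Lat rose by 1.32 ± 0.29 (adjusted p = 0.0237), Thy1 by 1.02 ± 0.21 (0.0125), Cd5 by 0.77 ± 0.18 (0.0317), Lcp2 by 0.75 ± 0.14 (0.00812) and Themis by 0.70 ± 0.16 (0.0244). These 5 calls depended on single arrays. Without LMPP replicate 1 none of the 5 was called (adjusted p from 0.0761 for Lcp2 to 0.254 for Lat) and 3 of the 20 genes were. Cd5, Thy1 and Themis were also lost without LMPP replicate 2 and without ETP replicate 2 (5 of the 20 genes called in each), and Lat and Cd5 without ETP replicate 1. The rises of Cd7, Cd3g and Trat1 held without each array. In DN3, 12 of the 20 genes were called higher than in ETP (8.73% of all genes were called in that comparison, 5.2% higher) and 3 lower. The DN3 and CLP arrays carry lower Xist, the transcript of the inactive X chromosome, at 9.44 or less against 11.51 or more in LMPP and ETP, so that a difference in the sex of the pooled animals and the population cannot be told apart there. All 4 LMPP and ETP arrays lie on the same side of it. In ETP minus CLP, which shares the ETP arrays, 10 of the 20 genes were called higher (13.1% of all genes were called, 5.42% higher).

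**Figure D3:**
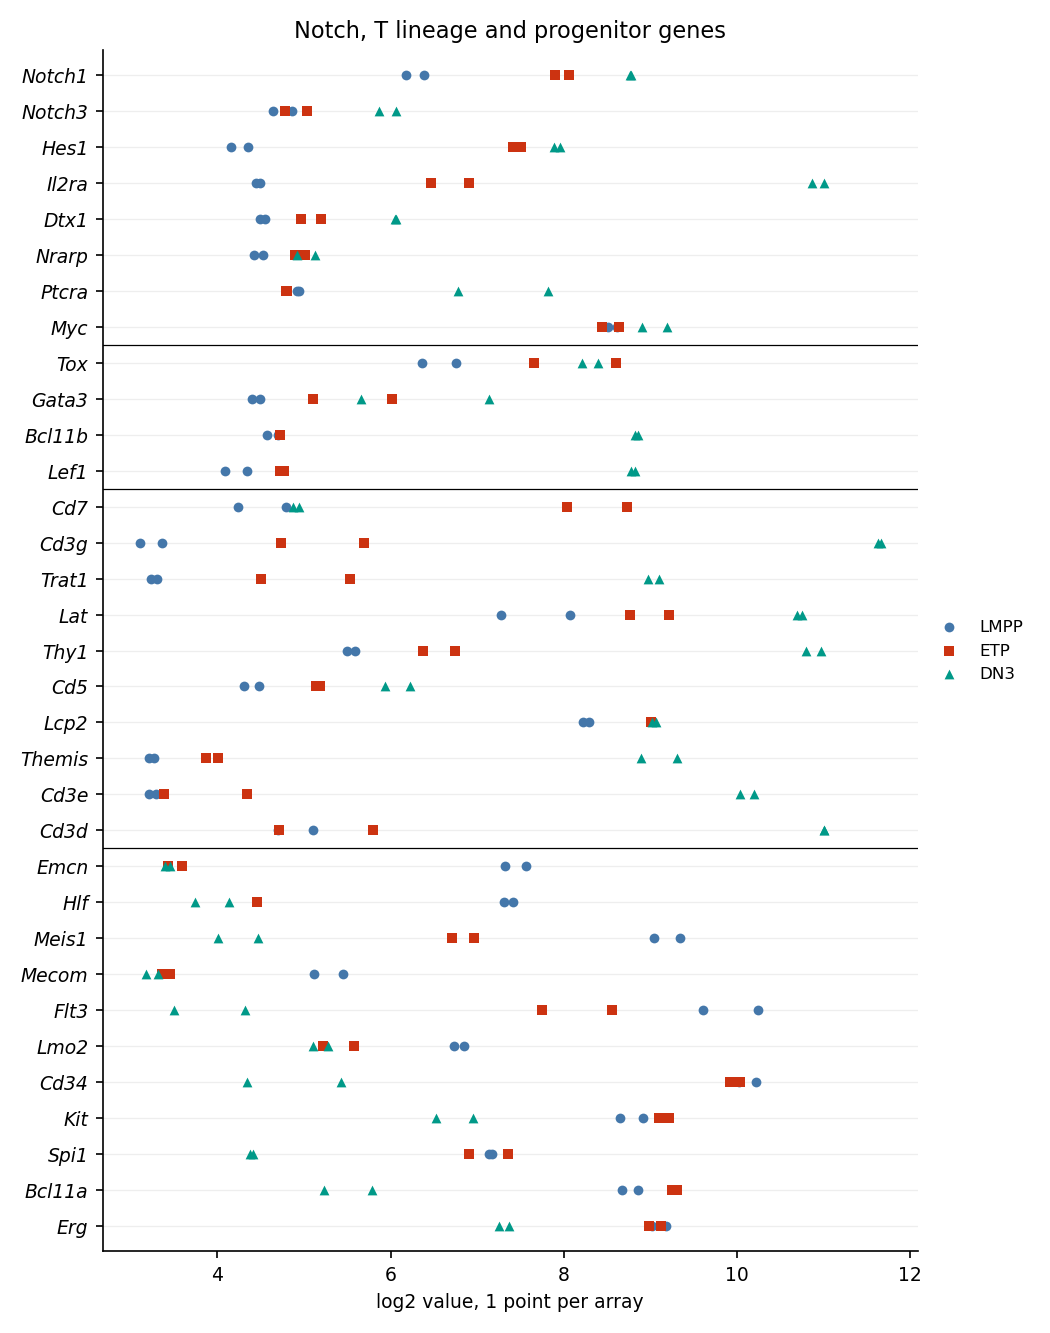
Log2 values of Notch pathway, T cell and progenitor genes on the LMPP, ETP and DN3 arrays. Points are arrays. Hes1, Notch1 and Cd7 are higher in both ETP arrays than in both LMPP arrays, Bcl11b is high in DN3 only, and Hlf and Meis1 are lower in ETP than in LMPP.

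Of 20 progenitor transcription factors, 5 fell (Hlf, Meis1, Mecom, Lmo2 and Cebpa) and 1 rose (Mycn), with a median of -0.08. Hlf, a factor of stem cell maintenance, was at 7.31 and 7.41 on the LMPP arrays and 4.45 and 4.45 on the ETP arrays and fell by 2.91 ± 0.21 (adjusted p = 2.24e-06), to a level below the median. Meis1, a partner of Hox proteins, was at 9.04 and 9.34 on the LMPP arrays and 6.71 and 6.97 on the ETP arrays and fell by 2.35 ± 0.19 (adjusted p = 5.6e-06). It fell by a further 2.60 between ETP and DN3. Mecom, a stem cell factor, fell by 1.88 ± 0.19 (adjusted p = 3.91e-05), and Lmo2, an adaptor of stem cell and erythroid factors, by 1.39 ± 0.22 (adjusted p = 0.00204). Cebpa, a myeloid factor, was close to the threshold (-1.09 ± 0.28, adjusted p = 0.0496) and was lost without any 1 of the 4 arrays (adjusted p from 0.106 to 0.264). Mycn, a relative of Myc, rose by 1.01 ± 0.23 from dim LMPP values (adjusted p = 0.0283), and was lost without LMPP replicate 2 (0.235) or ETP replicate 2 (0.225).

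Other progenitor factors were not called on entry and were lower later. Erg, an ETS factor of stem cells and early T precursors, was at 9.18 and 9.01 on the LMPP arrays and 8.98 and 9.12 on the ETP arrays (-0.05 ± 0.20), and at 7.37 and 7.25 in DN3. Hoxa9 was at 6.34 and 7.25 on the LMPP arrays and 6.69 and 6.77 on the ETP arrays (-0.07 ± 0.27), and at 4.27 and 3.68 in DN3. Lyl1, a helix-loop-helix factor of progenitors, was at 7.12 and 6.71 on the LMPP arrays and 7.37 and 7.33 on the ETP arrays (0.44 ± 0.23), and at 4.68 and 4.33 in DN3. In DN3 minus ETP, 11 of the 20 factors were lower (3.53% of all genes) and none higher. None of the 16 measured Hox genes was called by limma between ETP and LMPP, and 2 were lower at an unadjusted p under 0.05.

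The surface and growth factor genes that define these populations were measured as well. Kit, the stem cell factor receptor, was at 8.64 and 8.91 on the LMPP arrays and 9.22 and 9.09 on the ETP arrays and Cd34 at 10.02 and 10.22 on the LMPP arrays and 10.03 and 9.92 on the ETP arrays, and neither was called. Flt3, the Flt3 ligand receptor by which LMPP are usually sorted, was at 9.61 and 10.24 on the LMPP arrays and 7.75 and 8.55 on the ETP arrays and fell by 1.77 ± 0.35 (adjusted p = 0.0102). Without LMPP replicate 2 (adjusted p = 0.116) or ETP replicate 1 (adjusted p = 0.0763) Flt3 was not called. Il7r was at 6.65 and 6.76 on the LMPP arrays and 7.02 and 7.95 on the ETP arrays (0.78 ± 0.28, adjusted p = 0.184), the 2 ETP arrays being 0.94 apart, and was called without ETP replicate 1 (adjusted p = 0.0172). High Kit with Cd44 at 7.14 and 6.98 in ETP, against 4.58 and 4.81 in DN3, are the levels of the genes by which ETP are usually defined. Cd44 is a set-aside gene, so that its low DN3 values were part of the criterion that chose it.

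Of 15 stem cell markers, Angpt1 rose and Emcn fell, with a median of -0.09. Angpt1, the angiopoietin 1 growth factor, was at 9.81 and 10.03 on the LMPP arrays and 10.97 and 10.86 on the ETP arrays and rose by 1.00 ± 0.18 (adjusted p = 0.0058), a call lost without LMPP replicate 1 (0.0764). Emcn, a sialomucin of stem and endothelial cells, was at 7.32 and 7.56 on the LMPP arrays and 3.59 and 3.43 on the ETP arrays and fell by 3.93 ± 0.34 (adjusted p = 9.03e-06). Of 10 lymphoid priming genes Flt3 alone was called, and the median was 0.23. Dntt, the enzyme that adds bases at antigen receptor joints, was at 10.56 and 10.83 on the LMPP arrays and 10.92 and 10.98 on the ETP arrays, and Rag2, a subunit of the recombinase, at 6.73 and 6.78 on the LMPP arrays and 7.74 and 6.83 on the ETP arrays. Both were thus well above the median in LMPP already, and only the fit without ETP replicate 2 called Rag2 (adjusted p = 0.0465).

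Of 21 cytokine receptors, Il2ra and Il17rb rose and Flt3, Csf3r and Il6ra fell, with a median of -0.06. Il17rb, a subunit of the interleukin 25 receptor, was at 4.73 and 4.69 on the LMPP arrays and 7.42 and 7.64 on the ETP arrays and rose by 2.82 ± 0.30 (adjusted p = 7.06e-05), and DN3 were higher still at 9.11 and 8.46. Csf3r, the receptor of the granulocyte growth factor G-CSF, was at 7.76 and 7.73 on the LMPP arrays and 5.52 and 5.46 on the ETP arrays and fell by 2.25 ± 0.17 (adjusted p = 3.13e-06). Csf3r is a set-aside gene. Il6ra, the interleukin 6 receptor, fell by 1.03 ± 0.24 (adjusted p = 0.0317), and was called without ETP replicate 1 but not without LMPP replicate 1 (0.0773), LMPP replicate 2 (0.215) or ETP replicate 2 (0.249).

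Of 22 homing and adhesion genes measured, Itga4 and Itgal rose and Ccr2, Itga6, Itgb2 and Itgam fell, with a median of -0.11. Itga4, the alpha chain of the VCAM-1 receptor, was at 8.53 and 8.36 on the LMPP arrays and 9.53 and 9.75 on the ETP arrays and rose by 1.19 ± 0.19 (adjusted p = 0.00197). Itgal, the alpha chain of LFA-1, was at 6.42 and 6.95 on the LMPP arrays and 8.13 and 8.14 on the ETP arrays and rose by 1.44 ± 0.23 (adjusted p = 0.00248). Its partner chain Itgb2, which also pairs with the myeloid chain Itgam, was at 7.51 and 7.20 on the LMPP arrays and 5.82 and 5.82 on the ETP arrays and fell by 1.53 ± 0.23 (adjusted p = 0.00135). Itgam, a set-aside gene, fell by 2.26 ± 0.19 (adjusted p = 8.74e-06). Ccr2, a chemokine receptor of monocytes, was at 7.23 and 7.22 on the LMPP arrays and 4.46 and 5.60 on the ETP arrays and fell by 2.20 ± 0.29 (adjusted p = 0.00047). Like Itgam, Ccr2 is a set-aside gene. Itga6, a laminin receptor chain, fell by 1.08 ± 0.20 (adjusted p = 0.00762), and was lost without LMPP replicate 1 (0.0815). The receptors that guide progenitors to the thymus were not called: Ccr9 was at 4.85 and 5.12 on the LMPP arrays and 4.74 and 4.85 on the ETP arrays, and Ccr7 at 5.51 and 5.59 on the LMPP arrays and 5.52 and 5.66 on the ETP arrays.

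Of 18 genes of myeloid progenitors and primary granules, 11 fell (2.4% of all genes did) and none rose, with a median of -1.23. Of the 18 genes, 7 are set-aside genes. Of the 11 falls 6 were of set-aside genes (Ly6c2, Elane, Ms4a3, Ctsg, Hp and Csf3r). The other 5 were not (Prtn3, Irf8, Fcgr3, Cebpe and Cebpa), and the part of neutrophil RNA in those falls was not tested. Ly6c2, a surface protein of monocytes and granulocytes, was at 10.26 and 10.23 on the LMPP arrays and 4.48 and 4.86 on the ETP arrays and fell by 5.57 ± 0.21 (adjusted p = 1.92e-09). Elane, neutrophil elastase, was at 8.58 and 8.14 on the LMPP arrays and 4.02 and 5.69 on the ETP arrays and fell by 3.50 ± 0.43 (adjusted p = 0.000258). Ms4a3, a membrane protein of granulocyte progenitors, was at 7.32 and 6.88 on the LMPP arrays and 3.79 and 3.77 on the ETP arrays and fell by 3.32 ± 0.31 (adjusted p = 2.08e-05). Irf8, a factor of monocyte and dendritic cell development, was at 8.52 and 8.89 on the LMPP arrays and 6.61 and 7.19 on the ETP arrays and fell by 1.81 ± 0.30 (adjusted p = 0.00287), staying above the median. Ctsg, the granule protease cathepsin G, fell by 1.83 ± 0.31 to 7.41 and 7.22 (adjusted p = 0.00314).

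Other members of the list were not called. Mpo, the myeloperoxidase of primary granules, was at 9.97 and 9.93 on the LMPP arrays and 9.91 and 9.74 on the ETP arrays, a difference of -0.12 ± 0.23 (adjusted p = 0.875), and at 4.88 and 5.08 in DN3. Mpo is a set-aside gene, and low DN3 values were part of that criterion. Csf1r, the macrophage growth factor receptor, was at 5.32 and 5.53 on the LMPP arrays and 6.004 and 5.91 on the ETP arrays (0.53 ± 0.30, adjusted p = 0.462). Plac8, a protein of myeloid and lymphoid progenitors, was at 10.58 and 10.59 on the LMPP arrays and 10.84 and 10.89 on the ETP arrays (0.28 ± 0.18, adjusted p = 0.537).

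Cell division genes were lower in ETP as a group. Of 26 measured genes 24 fell (2.4% of all genes did) and none rose, with a median of -1.39. In all 26 both ETP arrays lay below both LMPP arrays, as they did in 17.5% of all genes. Mki67, the antigen Ki-67 of cycling cells, was at 10.20 and 10.32 on the LMPP arrays and 8.95 and 8.82 on the ETP arrays and fell by 1.37 ± 0.15, about 2.59-fold (adjusted p = 6.64e-05). Cdk1, the kinase that starts mitosis, was at 8.87 and 9.07 on the LMPP arrays and 7.43 and 7.03 on the ETP arrays and fell by 1.74 ± 0.17 (adjusted p = 3.59e-05). Ndc80, a kinetochore protein, was at 8.51 and 9.09 on the LMPP arrays and 6.37 and 5.85 on the ETP arrays and fell by 2.69 ± 0.26 (adjusted p = 2.51e-05), the largest fall of the list. Kif11, a motor protein of the spindle, was at 8.78 and 9.16 on the LMPP arrays and 7.03 and 7.48 on the ETP arrays and fell by 1.72 ± 0.20 (adjusted p = 0.000174). The 2 genes not called were Plk1 (difference -1.39 ± 0.39, adjusted p = 0.075) and Kif20a (difference -0.59 ± 0.19, adjusted p = 0.136), of which Kif20a was called without ETP replicate 1 (adjusted p = 0.044). Levels stayed well above the median in ETP, with means of single genes between 5.22 and 8.97. Without LMPP replicate 2, 16 of the 26 were called. All 26 were called higher in DN3 than in ETP (5.2% of all genes were), with a median of 1.60. The DN3 arrays were at 10.42 and 10.46 for Mki67 and 8.90 and 8.75 for Cdk1. In ETP minus CLP all 26 were called lower (7.64% of all genes), with a median of -2.11.

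Of 30 DNA replication genes measured, 6 fell (Rrm1, Rrm2, Mcm10, Pola1, Pole and Lig1) and none rose, with a median of -0.42. Rrm1, the large subunit of ribonucleotide reductase, which makes the precursors of DNA, was at 9.35 and 9.26 on the LMPP arrays and 7.80 and 7.84 on the ETP arrays and fell by 1.48 ± 0.13 (adjusted p = 1.14e-05). The call of Rrm1 held without each array and the other 5 did not: 1 of the 30 genes was called without LMPP replicate 2 or without ETP replicate 2, and 3 without LMPP replicate 1. In DN3, 22 of the 30 were called higher than in ETP (5.2% of all genes were). Cdkn2c, an inhibitor of the cyclin D kinases, fell by 0.80 ± 0.20 (adjusted p = 0.0475) and was lost without any 1 of the 4 arrays (adjusted p from 0.0748 to 0.223). It was the only 1 of 13 cyclins D, their kinases and inhibitors to be called.

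The promoters of cell division genes often carry a CCAAT box, the site of the factor NF-Y, with a cell cycle gene homology region (CHR, TTTGAA), the site of a repressor complex in resting cells. Both motifs were searched as CCAAT and TTTGAA on both strands in the 250 bases before the start of each gene in RefSeq (GRCm38.p6). A gene was counted once per motif however many matches it held, and overlapping matches were not left out. Where a gene has several promoters, a match in any of them counted, so that both motifs need not share a promoter. The promoters of Cdk1 (chr10:69352913-69353162, minus strand) and Kif11 (chr19:37376132-37376381, plus strand), genes of the list whose falls held without each array in turn, are shown because they hold both. Capitals mark the motifs, which read ATTGG and TTCAAA where they lie on the other strand.
Cdk1: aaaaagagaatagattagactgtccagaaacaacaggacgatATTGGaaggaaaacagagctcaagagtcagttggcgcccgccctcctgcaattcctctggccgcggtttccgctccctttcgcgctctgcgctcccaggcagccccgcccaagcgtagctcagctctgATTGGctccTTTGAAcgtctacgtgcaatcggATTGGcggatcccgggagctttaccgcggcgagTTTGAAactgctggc
Kif11: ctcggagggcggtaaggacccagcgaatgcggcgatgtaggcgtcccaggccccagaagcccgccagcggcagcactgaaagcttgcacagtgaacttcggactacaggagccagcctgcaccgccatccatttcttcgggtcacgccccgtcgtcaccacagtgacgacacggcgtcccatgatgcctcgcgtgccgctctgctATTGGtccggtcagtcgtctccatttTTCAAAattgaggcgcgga
The TTTGAA motifs of Cdk1 begin 71 and 15 bases before the start, and the TTCAAA of Kif11 begins 19 bases before it. Of 22 cell division genes with a promoter in the table, 17 (77.3%) held CCAAT, 8 (36.4%) TTTGAA and 8 both. Among all 16990 measured genes with a promoter the shares were 38.7%, 16.1% and 6.58%. They were 37.5%, 18.3% and 7.34% among all 27025 genes for which RefSeq gives a promoter. The 24 matched DNA replication genes held CCAAT in 62.5% and TTTGAA in 16.7%. The 379 matched genes that fell outside the set-aside held them in 48% and 20.3%, and the 166 that rose in 37.3% and 19.9%. These counts describe letters in a window and not binding.

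Histone genes of the replication-dependent clusters, a group chosen after its values were seen and given no test, stood among the largest falls. Of 25 measured, 7 fell (2.4% of all genes did) and none rose, with a median of -0.77, and in 16 both ETP arrays lay below both LMPP arrays, as in 17.5% of all genes. H2bc12, an H2B gene, was at 9.08 and 9.34 on the LMPP arrays and 4.12 and 4.06 on the ETP arrays and fell by 5.12 ± 0.52 (adjusted p = 4.37e-05). H1f1, a linker histone, was at 7.27 and 7.22 on the LMPP arrays and 4.21 and 4.22 on the ETP arrays and fell by 3.03 ± 0.26 (adjusted p = 8.74e-06). In others the 2 ETP arrays differed: H1f5 was at 9.28 and 9.80 on the LMPP arrays and 5.37 and 7.41 on the ETP arrays and H2ac15 at 7.29 and 7.70 on the LMPP arrays and 2.96 and 4.67 on the ETP arrays, ETP replicate 1 being the lower in both. H1f5 fell by 3.15 ± 0.54 and H2ac15 by 3.68 ± 0.58. H2bc18 fell by 2.02 ± 0.25, H1f2 by 1.77 ± 0.36 and H2ac10 by 1.63 ± 0.30. H1f2 was lost without LMPP replicate 1 (0.0997), LMPP replicate 2 (0.0635) or ETP replicate 1 (0.0657), and H2ac10 without LMPP replicate 1 (0.0727). In DN3, H2bc12 was at 7.46 and 8.50 and H1f1 at 7.35 and 7.46, so that ETP lay below both LMPP and DN3. Histone genes of a cluster are alike in sequence, and a probe set can read more than 1 of them.

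**Figure D4:**
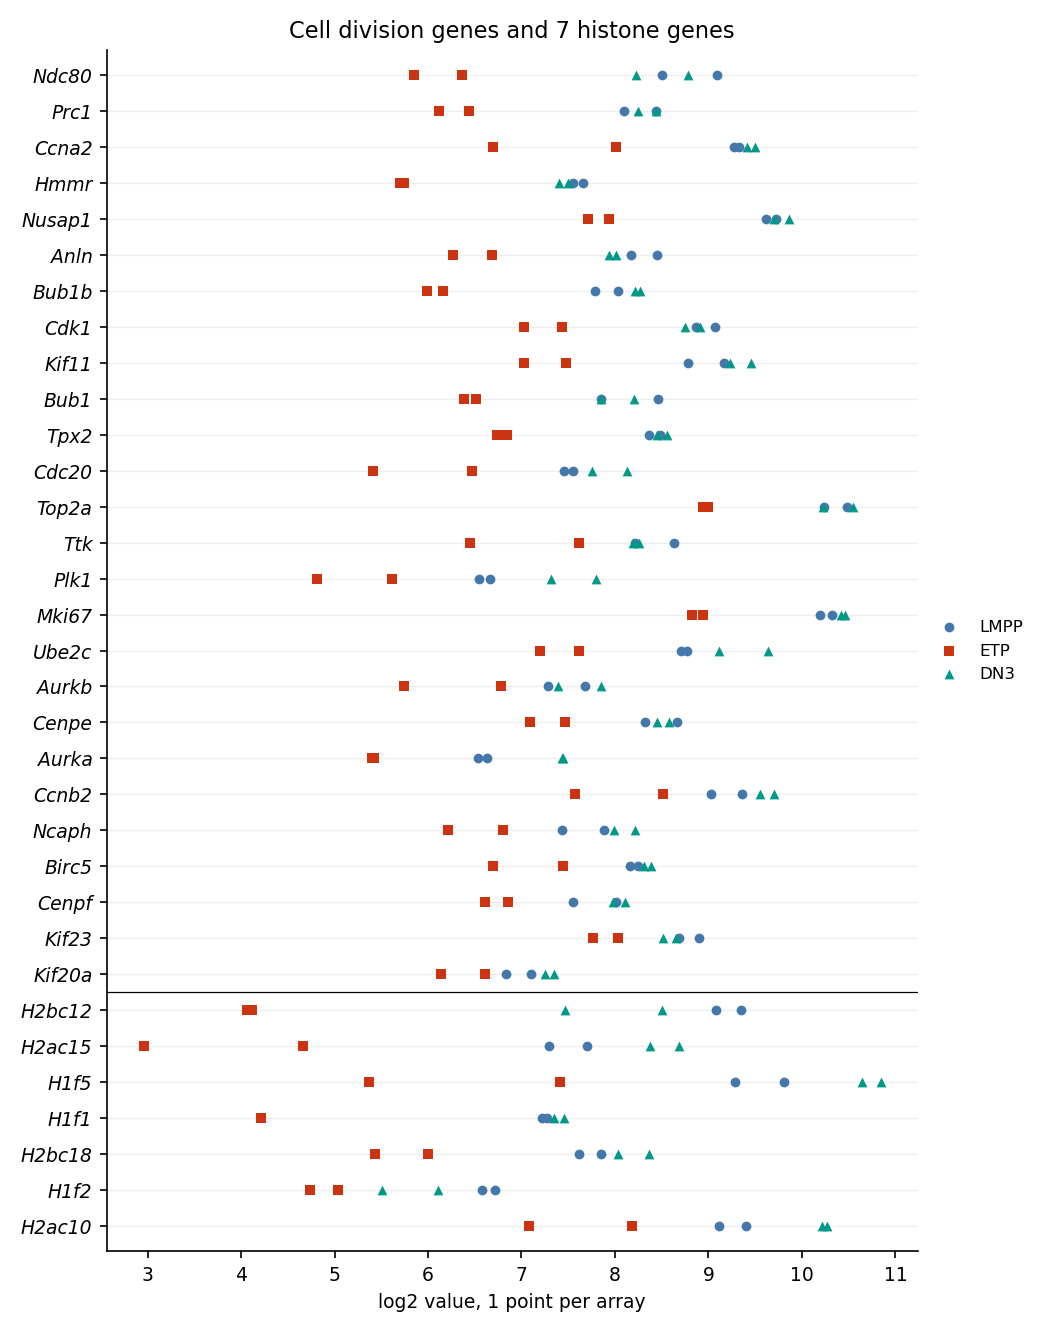
Log2 values of cell division genes and histone genes on the LMPP, ETP and DN3 arrays. Points are arrays. The ETP arrays lie below the LMPP and the DN3 arrays for Mki67, Cdk1, H2bc12 and H1f1.

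MicroRNAs regulate messenger RNAs that pair with their seed, bases 2 to 8 of the mature strand. miR-181 is a family of thymocytes that is known to tune T cell receptor signalling and Notch. The array has probe sets for its 6 hairpins, which were chosen after their values were seen. The 4 mature sequences of the 5' arm, from RefSeq (GRCm38.p6), are shown because they share 1 seed, in capitals.
miR-181a-5p: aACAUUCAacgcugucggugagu
miR-181b-5p: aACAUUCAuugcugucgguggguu
miR-181c-5p: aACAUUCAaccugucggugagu
miR-181d-5p: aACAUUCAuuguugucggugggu
The hairpins lie in pairs: Mir181a-1 and Mir181b-1 on chromosome 1 (chr1:137966455-137966541 and chr1:137966639-137966718, plus strand), Mir181a-2 and Mir181b-2 on chromosome 2 (chr2:38852735-38852810 and chr2:38853830-38853918, plus strand), and Mir181c and Mir181d on chromosome 8. Of the 6, 3 rose, 1 from each pair. Mir181b-1 was at 2.89 and 2.88 on the LMPP arrays and 4.78 and 5.67 on the ETP arrays and rose by 2.34 ± 0.31 (adjusted p = 0.000442). Mir181c was at 6.90 and 6.71 on the LMPP arrays and 7.71 and 8.05 on the ETP arrays and rose by 1.07 ± 0.17 (adjusted p = 0.00237). Mir181a-2 was at 3.84 and 3.98 on the LMPP arrays and 5.92 and 5.75 on the ETP arrays and rose by 1.93 ± 0.43 (adjusted p = 0.0247), a call lost without any 1 of the 4 arrays (adjusted p from 0.0865 to 0.156). Mir181a-1, at 2.72 and 2.40 on the LMPP arrays and 4.09 and 2.73 on the ETP arrays, differed between the ETP arrays and was called without ETP replicate 2 alone (adjusted p = 0.00025). Mir181b-2 was at 8.64 and 7.28 on the LMPP arrays and 8.94 and 8.70 on the ETP arrays and Mir181d at 5.39 and 5.57 on the LMPP arrays and 5.60 and 5.44 on the ETP arrays, and neither was called. In DN3 3 of the 6 were called lower than in ETP (3.53% of all genes were). A hairpin probe set reads the precursor or its host transcript, not the mature strand. Of all 478 hairpin probe sets 9 were higher (1.02% of all genes were) and 3 lower.

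Of 4 measured hairpins of the miR-17 cluster on chromosome 14, a cluster that promotes lymphocyte growth and survival, 2 were also higher, which was noticed after their values were seen. Their mature strands have different seeds.
miR-17-5p: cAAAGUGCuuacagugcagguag
miR-18a-5p: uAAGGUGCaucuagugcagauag
Mir17 was at 6.03 and 5.44 on the LMPP arrays and 6.84 and 6.89 on the ETP arrays and rose by 1.13 ± 0.21 (adjusted p = 0.0072), and was not called without LMPP replicate 2 (0.094). Mir18 was at 5.45 and 5.57 on the LMPP arrays and 6.71 and 6.51 on the ETP arrays and rose by 1.10 ± 0.27 (adjusted p = 0.0431), and was lost without any 1 of the 4 arrays (adjusted p from 0.109 to 0.23). The other 2 were not called: Mir19a was at 2.70 and 2.37 on the LMPP arrays and 2.40 and 2.31 on the ETP arrays (-0.18 ± 0.22, adjusted p = 0.783) and Mir20a at 2.94 and 4.23 on the LMPP arrays and 5.52 and 3.18 on the ETP arrays (0.77 ± 0.57, adjusted p = 0.604). Mir20a differed between the arrays of each group and was called without ETP replicate 2 alone (0.0343).

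The gene with the largest rise was Olfr649, an olfactory receptor gene on chromosome 7. It was at 2.55 and 2.65 on the LMPP arrays and 8.28 and 7.92 on the ETP arrays and rose by 5.50 ± 0.17, about 45.1-fold (adjusted p = 3.94e-10). On the other 15 arrays it was at 2.76 or less, DN3 included (2.48 and 2.50), so that the level was high on the ETP arrays alone. Its neighbours in the RefSeq order (GRCm38.p6) moved with it, which was noticed after their values were seen. Olfr648, the next gene, was at 2.87 and 2.65 on the LMPP arrays and 5.71 and 6.02 on the ETP arrays and rose by 3.11 ± 0.18 (adjusted p = 2.08e-07). Olfm5, an olfactomedin gene, was at 5.75 and 5.88 on the LMPP arrays and 8.47 and 8.35 on the ETP arrays and rose by 2.59 ± 0.21 (adjusted p = 5.09e-06). Ubqlnl, a ubiquilin-like gene, was at 3.21 and 3.55 on the LMPP arrays and 7.16 and 5.92 on the ETP arrays and rose by 3.16 ± 0.29 (adjusted p = 1.93e-05). Ubqln5, the next measured gene, was at 3.61 and 3.77 on the LMPP arrays and 4.77 and 4.22 on the ETP arrays and rose by 0.81 ± 0.17 (adjusted p = 0.0197), and was not called without LMPP replicate 1 (0.165), LMPP replicate 2 (0.0635) or ETP replicate 1 (0.114). In all 5, both ETP arrays lay above each of the other 15 arrays. How many of all genes do so was not counted.

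The nearest measured genes on either side were not called. Olfr646, beyond Ubqln5, was at 4.17 and 4.13 on the LMPP arrays and 5.33 and 5.02 on the ETP arrays (1.02 ± 0.31, adjusted p = 0.113), its ETP arrays again above the other 15. Trim6, the first measured gene beyond Olfr649, was at 4.33 and 3.80 on the LMPP arrays and 4.17 and 3.92 on the ETP arrays (-0.02 ± 0.19, adjusted p = 0.985). Further out on that side Gm15133, a long non-coding RNA gene, was at 5.84 and 5.21 on the LMPP arrays and 6.87 and 7.05 on the ETP arrays and rose by 1.43 ± 0.33 (adjusted p = 0.0309), and was not called without LMPP replicate 2 (0.241), ETP replicate 1 (0.0657) or ETP replicate 2 (0.157). Of 1088 olfactory receptor genes measured, 4 rose (Olfr38, Olfr648, Olfr649 and Olfr681) and none fell, with a median of 0.11. Near-identical genes can share probes in such clusters.

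**Figure D5:**
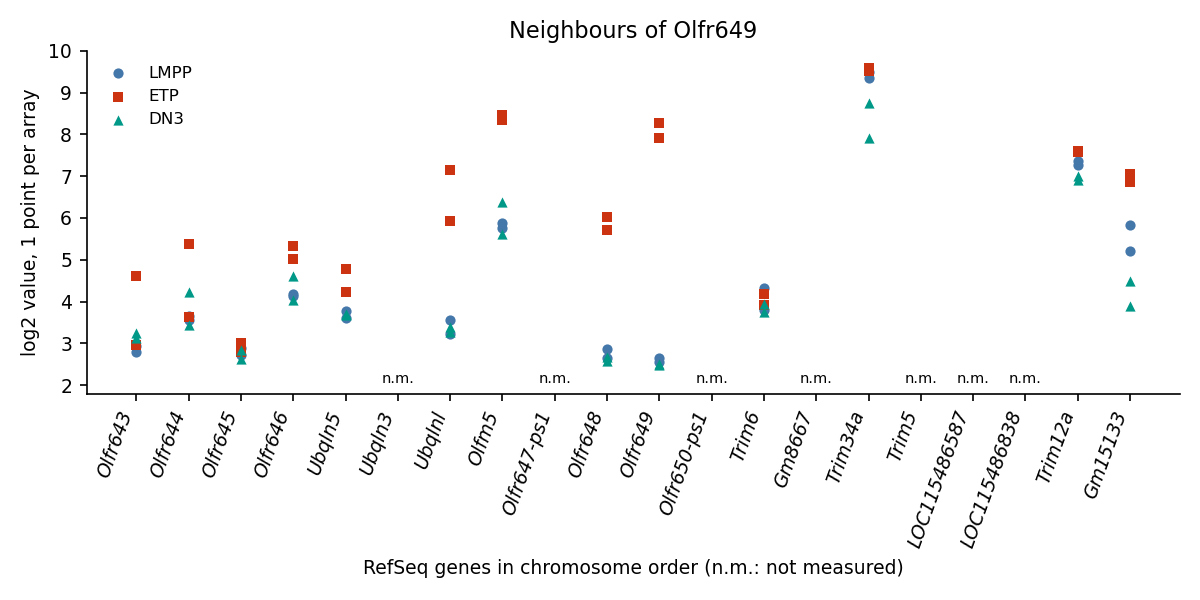
Log2 values on the LMPP, ETP and DN3 arrays of the genes around Olfr649, by their order on chromosome 7. Points are arrays. The ETP arrays lie above the LMPP and DN3 arrays for the 5 measured genes from Ubqln5 to Olfr649, all called. They also do so for Gm15133, which is called, and for Olfr646, Trim34a and Trim12a, which are not. At Trim6 the groups overlap.

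Other large rises were in genes of several kinds. Fasl, the ligand of the death receptor Fas, was at 3.81 and 3.88 on the LMPP arrays and 7.77 and 7.98 on the ETP arrays and rose by 4.03 ± 0.15, about 16.4-fold (adjusted p = 1.62e-09). Its ETP level was near that of NK cells (mean 7.93), and DN3 were at 3.97 and 3.82. Deptor, an inhibitor of the growth kinase mTOR, was at 5.83 and 4.91 on the LMPP arrays and 8.90 and 8.85 on the ETP arrays and rose by 3.51 ± 0.28 (adjusted p = 4.36e-06). Tsc22d1, a leucine zipper protein, was at 5.84 and 5.53 on the LMPP arrays and 8.83 and 9.48 on the ETP arrays and rose by 3.48 ± 0.30 (adjusted p = 9.16e-06). Scin, the actin-severing protein scinderin, was at 4.31 and 4.20 on the LMPP arrays and 7.48 and 7.72 on the ETP arrays and rose by 3.35 ± 0.29 (adjusted p = 8.74e-06). Tsc22d1 and Scin stayed high in DN3, at 8.72 and 8.27 and 7.86 and 7.71, while Deptor was lower there at 6.46 and 6.17.

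Pde3b, a phosphodiesterase that breaks down cyclic AMP, was at 6.11 and 6.25 on the LMPP arrays and 8.82 and 8.88 on the ETP arrays and rose by 2.67 ± 0.29 (adjusted p = 9.33e-05). BE692007, an unnamed transcript, rose by 2.89 ± 0.48 (adjusted p = 0.00319). Hspa1b, an inducible heat shock protein of the immediate early and stress list, was at 3.40 and 4.11 on the LMPP arrays and 6.52 and 6.55 on the ETP arrays and rose by 2.78 ± 0.70 with the widest error of the 15 (adjusted p = 0.0473), and was lost without any 1 of the 4 arrays (adjusted p from 0.109 to 0.283). In 8 of the 15 largest rises (Olfr649, Deptor, Tsc22d1, Ubqlnl, Olfr648, BE692007, Mcpt2 and Pde3b) both ETP arrays lay above all 15 other arrays. These rises were picked by their ETP values, and the share of all genes with this pattern was not counted.

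Cpa3, carboxypeptidase A3 of mast cell granules, which is also transcribed in progenitors, was at 7.66 and 6.65 on the LMPP arrays and 10.52 and 10.25 on the ETP arrays and rose by 3.23 ± 0.33 (adjusted p = 4.77e-05). It was at 9.70 and 10.28 in DN3, and its LMPP arrays differed by 1.01. Of 9 mast cell and basophil markers Cpa3 alone was called. At an unadjusted limma p under 0.05, 1 of the 9 was higher and 2 lower, and the lowest difference of the list was -1.46. The mean over the list was 4.67 and 4.45 on the LMPP arrays and 4.64 and 4.63 on the ETP arrays. Fcer1a, Cma1 and Tpsb2 were at 3.76 or less on all 4 arrays, but Mcpt8 of the same list was well above the median. It was at 6.92 and 7.10 on the LMPP arrays and 6.55 and 5.85 on the ETP arrays and was not called (limma adjusted p = 0.342). Mcpt2, a mast cell protease, was at 2.91 and 2.70 on the LMPP arrays and 5.81 and 5.23 on the ETP arrays and rose by 2.71 ± 0.18 (adjusted p = 8.86e-07), from at most 2.91 on the other 15 arrays.

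Among the largest falls outside the set-aside, besides the histone genes and Emcn, were genes of several kinds. Wfdc17, a secreted protease inhibitor, was at 8.75 and 9.52 on the LMPP arrays and 4.04 and 4.53 on the ETP arrays and fell by 4.86 ± 0.36 (adjusted p = 2.24e-06). Sdc1, the proteoglycan syndecan 1, was at 7.76 and 7.69 on the LMPP arrays and 4.53 and 4.30 on the ETP arrays and fell by 3.31 ± 0.29 (adjusted p = 1.06e-05), and LMPP were its highest population. Tnip3, an inhibitor of NF-kB signalling, was at 6.56 and 6.70 on the LMPP arrays and 3.31 and 3.68 on the ETP arrays and fell by 3.13 ± 0.25 (adjusted p = 5.09e-06), and Oas1g, a sensor of double-stranded RNA, fell by 3.27 ± 0.55 (adjusted p = 0.00318). The 19 interferon response genes as a list held no gene called by limma (median -0.15), with 2 higher and 4 lower at an unadjusted p under 0.05.

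The other 6 of these 15 falls were among the genes that correlated above 0.8 with Ltf, Camp and Ngp, although they were not set aside. Ly6a2, a relative of the stem cell antigen Sca-1, was at 9.70 and 9.45 on the LMPP arrays and 5.29 and 5.46 on the ETP arrays and fell by 4.20 ± 0.28 (adjusted p = 1.07e-06). Syne1, a nuclear envelope protein, was at 8.68 and 9.24 on the LMPP arrays and 5.16 and 5.17 on the ETP arrays and fell by 3.79 ± 0.32 (adjusted p = 7.38e-06). Cstdc4, a cystatin domain gene, fell by 5.02 ± 0.33, Clec4a2, a lectin receptor of myeloid cells, by 3.29 ± 0.34, Gca, the calcium-binding protein grancalcin, by 3.12 ± 0.40 and Scrg1 by 3.07 ± 0.41. The part of neutrophil RNA in these falls was not tested.

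Lists of other lineages held few calls. Of 16 B lineage genes Blnk, an adaptor of the B cell receptor, fell by 1.17 ± 0.21 to dim values (adjusted p = 0.0047, lost without LMPP replicate 2 at 0.0535), with a median of -0.18. Of 19 NK and innate lymphoid genes Nkg7, a granule protein of cytotoxic cells, rose by 1.31 ± 0.18 from 8.65 and 8.44 to 9.76 and 9.95 (adjusted p = 0.000517). Klrd1, the NK receptor chain CD94, was at 5.62 and 4.80 on the LMPP arrays and 7.58 and 6.38 on the ETP arrays and rose by 1.77 ± 0.38 (adjusted p = 0.0176), a call lost without LMPP replicate 2 (0.177) or ETP replicate 1 (0.112). Levels of the members not called varied. Ncr1, Eomes and Klrb1c were at 4.79 or less on all 4 arrays. Cd244a was at 6.61 and 6.89 on the LMPP arrays and 8.36 and 7.80 on the ETP arrays. Ccl5 was at 6.80 and 7.39 on the LMPP arrays and 7.10 and 8.07 on the ETP arrays. At an unadjusted p under 0.05, 4 of the 19 genes were higher and 1 lower, with a median of 0.13. Of 11 dendritic cell genes Itgax rose by 0.88 ± 0.19 (adjusted p = 0.0214, lost without LMPP replicate 2 at 0.189 or ETP replicate 2 at 0.171). No MHC class II gene (9), Gimap gene (8), or glycolysis and hypoxia response gene (21) was called by limma. At an unadjusted p under 0.05, 0 of the MHC class II genes passed, 1 Gimap gene was lower and 5 glycolysis and hypoxia response genes were lower. Bcl2, the survival protein, was at 8.34 and 8.83 on the LMPP arrays and 7.27 and 7.496 on the ETP arrays and fell by 1.20 ± 0.21 (adjusted p = 0.0051, lost without LMPP replicate 2 at 0.0749), the only call of 13 Bcl2 family genes, and was at 9.40 and 8.91 in DN3. Of 19 Myc and ribosome biogenesis genes Mycn alone was called.

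Markers of other cells that a thymus or marrow sort could hold were checked by list. None of 10 later thymocyte and mature T cell markers was called by limma, with 2 higher and 1 lower at an unadjusted p under 0.05 (mean over genes 4.26 and 4.26 in LMPP and 4.36 and 4.51 in ETP). Of 14 macrophage markers Cd68 and Slc40a1 fell, both calls being lost without LMPP replicate 2 (0.146 and 0.189), Cd68 also without ETP replicate 2 (0.14) and Slc40a1 without LMPP replicate 1 (0.151) or ETP replicate 1 (0.159). The list was at 4.58 and 4.62 in LMPP and 4.33 and 4.41 in ETP. Of 11 thymic epithelial markers Krt18 fell by 1.72 ± 0.23, which was not called when probe sets of a gene were averaged (adjusted p = 0.0771), and the list was at 4.68 and 4.66 in LMPP and 4.57 and 4.53 in ETP. Of 10 stromal and endothelial markers Pdgfrb, a growth factor receptor of stromal cells, was at 5.78 and 5.77 on the LMPP arrays and 8.41 and 7.75 on the ETP arrays and rose by 2.31 ± 0.22 (adjusted p = 2.51e-05), against a list mean of 4.25 and 4.21 in LMPP and 4.41 and 4.46 in ETP. Of 10 mature B and plasma cell markers Sdc1 alone fell (4.54 and 4.45 against 3.99 and 4.15). Of 3 red cell markers Rhag fell by 1.41 ± 0.26 (5.56 and 5.45 for the list against 4.40 and 4.72), a call lost without LMPP replicate 1 (0.0923) or ETP replicate 2 (0.0638). Car1, a carbonic anhydrase of erythroid cells and a set-aside gene, fell by 3.29 ± 0.25, the only 1 of 11 megakaryocyte and erythroid genes to be called. Among 23 immediate early and stress genes, which can respond to sorting, Hspa1b rose and Klf4 fell by 0.89 ± 0.17 (lost without LMPP replicate 1 at 0.0965), with a median of -0.23.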

How the data were processed

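RNA of 9 sorted populations was extracted with Trizol, amplified with a NuGEN Pico V2 kit, labelled with biotin and hybridised to Affymetrix Mouse Gene 2.0 ST arrays, per the labels' protocols. The authors deposited log2 values per probe set. Affymetrix Expression Console made them, per the submitters' processing notes, and neither its version nor its algorithm is given in the sources used here.

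The members and gene lists were chosen with earlier results of these data known. Of 41345 probe sets, 23521 have 1 gene symbol in the platform annotation, 1814 several and 16010 none. The probe set with the highest mean was kept for each of 22180 genes, and 522 of 577 list entries were measured. limma 3.58.1 (lmFit and eBayes) in R 4.3.3 fitted all 17 arrays together, giving each population its own mean, with 8 residual degrees of freedom and 5.33 from the prior. The fit was tested on simulated data with independent noise and the same spread per gene in all populations. That setting covers neither unequal spread between populations nor replicates that are not separate pools. The text names the 15 largest changes in each direction (called, at least 2-fold, no overlap) outside the set-aside genes, the 5 largest among them, and list members. Predicted genes, small RNA genes, pseudogenes and receptor segments were left out of that rule. The miR-181, miR-17 and histone genes, Olfr649's neighbours, other phosphodiesterases and mast cell proteases were chosen after their values were seen. Replicate numbers were checked for pairing by the correlation of deviations from population means. Alternatives are in the closing section. The intensity files were not used here.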

Additional observations from a re-analysis of the deposited data

How the results depend on the processing

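No called gene named in the text changed direction under any alternative, and of 113 such genes 74 stayed called without each of the 4 arrays in turn. With only the 4 arrays compared, 77 genes were higher and 238 lower, or 77 and 186 outside the set-aside, and 1083 differed between DN3 and ETP and 1787 between ETP and CLP (the main counts were 226, 533, 225, 474, 1936 and 2896). Fewer degrees of freedom belong to that fit by construction. Of 163 genes followed in the text, 39 that were called in the main fit were not called in it. With a replicate block on those 4 arrays the counts were 107 and 315, 107 and 263, and 1095 for DN3 against ETP. There 29 of the 163 genes lost their call and 1 gained it. Array weights left 147 higher, or 146 outside the set-aside. With a replicate block on all arrays, 235 were higher and 541 lower. Deviations of ETP and LMPP arrays with the same number correlated at -0.0041, and 0 of 28 pairs of populations exceeded 0.1 (range -0.0737 to 0.0892), so the numbers were not taken to pair the samples. Leaving out 1 array gave 101 to 401 higher and 330 to 578 lower, 100 to 400 and 276 to 521 outside the set-aside, 1115 to 1915 between DN3 and ETP, and 1865 to 3130 between ETP and CLP. Centring, quantile normalization, leaving out dim genes, averaging probe sets, testing every probe set, trend and robust moderation, and leaving out the CLP, EILP and DN3 arrays kept the higher and lower counts within 1.5 times. A set-aside margin of 1 left 415 lower. The cause of these shifts was not tested. With 2 arrays a population, dim genes have the least certain sizes.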

Other observations

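Some genes outside the comparisons above, chosen after their values were seen, are given as values. Pde3b was accompanied by other genes named as cyclic nucleotide phosphodiesterases or their subunits. Of 24 measured, 3 rose in ETP (1.02% of all genes did) and none fell, with a median of 0.10. Pde8a was lower without being called, at 5.65 and 5.10 on the LMPP arrays and 4.68 and 4.03 on the ETP arrays (-1.03 ± 0.30, limma adjusted p = 0.0903). Pde7a was at 6.96 and 7.03 on the LMPP arrays and 8.32 and 8.56 on the ETP arrays and rose by 1.44 ± 0.19 (limma adjusted p = 0.000517), and Pde7b was at 4.91 and 4.85 on the LMPP arrays and 7.05 and 6.002 on the ETP arrays and rose by 1.64 ± 0.26 (limma adjusted p = 0.00197). Both held without each of the 4 arrays, and both were lower in DN3, at 7.43 and 7.49 and 4.12 and 4.62.

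The ETP arrays differed in 1 mast cell protease. Mcpt1 was at 6.43 on ETP replicate 1 and at 2.80 on ETP replicate 2, against 3.09 and 2.90 on the LMPP arrays, while its relative Mcpt2 was high on both. Mcpt1 was not called (limma adjusted p = 0.327) except without ETP replicate 2 (1.6e-06).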
